A study of Homo sapiens with 24 samples.

Results

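The 37 genes described here encode chaperones of the cytosol, the endoplasmic reticulum (ER) and the mitochondria, with 2 genes of the unfolded protein response. They were chosen by symbol and found through their Ensembl identifiers in every table, among 20426 genes shared by all tables. By role they comprise 9 genes of the cytosolic HSP70 system, 3 of the cytosolic HSP90 and small heat shock protein group, 8 subunits of the chaperonin TRiC/CCT, 4 mitochondrial chaperones, 7 ER chaperones and cochaperones, 4 ER disulfide isomerases, and XBP1 and HERPUD1. Of the 37, 36 passed the filter on low counts, as did 11938 genes in all, and HSPE1 did not.

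The data are 24 ribosome profiling libraries from cultured human cells, with 2 libraries of input RNA (INPUT, read here as the mRNA level) and 2 of ribosome-protected fragments (RPF, footprints) for each of 6 cell populations. These were 841CON (cell line 841-CON, labelled as normal epithelium of the colon, genotype WT), the colon cancer lines HCT116, HCT15 and SW620 (genotype WT), HCT15 carrying the vector PLVX (also labelled WT, called the vector line here), and HCT15 labelled as overexpressing COPS7B, a subunit of the COP9 signalosome. All cells were exposed to cycloheximide, which arrests translating ribosomes, at 100 µg/mL for 10 minutes. The question of the design is how translational efficiency (TE, footprints relative to mRNA) in each cancer line differs from that in 841CON. HCT15, HCT116, SW620 and 841CON each grew in a different medium, and SW620 in an air incubator, so cell line and culture cannot be told apart.

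HSP70 proteins bind unfolded stretches of other proteins; J-domain proteins such as DNAJB1 deliver clients to them, and exchange factors such as BAG3 and HSPH1 release the nucleotide. HSP90 matures signalling proteins, and TRiC/CCT, a ring built from different subunits, folds actin and tubulin. In the ER, HSPA5 (BiP) and HSP90B1 (GRP94) hold folding secretory proteins, the lectins CALR and CANX retain glycoproteins, and PDIA3, PDIA4, PDIA6 and P4HB form disulfide bonds. In the mitochondrial matrix HSPA9 (mortalin) draws in and folds imported proteins, HSPD1 with its lid HSPE1 forms the HSP60 chaperonin, and TRAP1 is the HSP90 of the organelle. Heat shock factors switch on cytosolic chaperones through heat shock elements, and ATF6 and XBP1 switch on ER chaperones through the ER stress response element.

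Promoter sequences were searched for both elements because ER chaperones and cytosolic chaperones moved apart in these data. RefSeq windows (GRCh38.p14, 250 bases before to 50 after an annotated start) were found for 35 of the 37 genes. A gene can have several starts, 35116 windows for 27305 genes, and some lie well inside the span of the gene, as given for each match below. The ER stress response element, searched on both strands as CCAAT and CCACG with 9 bases between them, was present in 27 windows (0.0769%) and in those of 6 of the chaperone genes, of which 5 are ER chaperones or isomerases and the sixth is XBP1. Every match in these genes is given with the element in capitals, 5′ to 3′ on the strand named:
HSPA5, chr9:125241387-125241413, minus strand, 66 to 48 bases before the start: ttcaCCAATcggcggcctCCACGacgg
HSP90B1, chr12:103930212-103930238, plus strand, 194 to 176 bases before the start: ctgaCCAATcggaaggagCCACGcttc
HSP90B1, chr12:103930317-103930343, minus strand, 89 to 71 bases before the start: cccaCCAATcgcgccgcaCCACGcacc
CALR, chr19:12938380-12938406, minus strand, 225 to 207 bases before the start: ccgaCCAATgatggtcgaCCACGcgtg
CANX, chr5:179698774-179698800, plus strand, 151 to 133 bases before a start that lies 20273 bases inside the gene: ccggCCAATcttcacactCCACGaaga
PDIA6, chr2:10812849-10812875, minus strand, 86 to 68 bases before a start that lies 24927 bases inside the gene: cggaCCAATgagccgcagCCACGgctt
XBP1, chr22:28800599-28800625, minus strand, 52 to 34 bases before the start: ctggCCAATcgcggagggCCACGaccg

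The heat shock element, searched on both strands as GAA, TTC and GAA with 2 bases between neighbours, was present in 172 windows (0.49%) and in those of 5 of the chaperone genes, HSPA8, HSP90AA1, HSP90AB1, HSPD1 and DNAJA1, none of which acts in the ER. HSPA8 and DNAJA1 were not called higher in mRNA in any cancer line, and their matches are not printed. Those of HSPA8 lie 230 to 218 and 55 to 43 bases before a start that lies 326 bases inside the gene. That of DNAJA1 lies just after its start. The printed matches were picked by the change of mRNA, so they do not tell whether element and change go together. For the other 3 genes, whose mRNA was higher in every cancer line, the match nearest to its start is shown, with the element in capitals:
HSP90AA1, chr14:102087116-102087136, plus strand, 88 to 76 bases before a start that lies 52705 bases inside the gene: tcccGAAccTTCcgGAAgaac
HSP90AB1, chr6:44247827-44247847, minus strand, 112 to 100 bases before a start that lies 1749 bases inside the gene: tccaGAAgcTTCcaGAAcaat
HSPD1, chr2:197500064-197500084, minus strand, 240 to 228 bases before a start that lies 434 bases inside the gene: tctgGAAagTTCtgGAAccga
No window of the chaperone genes held both elements, and the 2 matches in the HSPD1 window overlap on opposite strands. Matches describe letters in a window, and no factor was measured at them. HSPA5 and HSP90B1 had the ER element, and their mRNA was not called in any cancer line. HYOU1, P4HB and PDIA4 had no match of it and were also called lower in HCT15 footprints. Whether the elements play a part in the changes was not tested.

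INPUT libraries held 960395 to 6596429 counts in the shared genes and RPF libraries 84262 to 4679279. The chaperone genes took 7893 to 50097 counts of an INPUT library and 498 to 86882 of an RPF library, with the fewest in SW620 RPF. Both HCT116 pairs and the RPF pairs of 841CON and COPS7B differed by little more than sampling noise (chi-square per gene 1.39 to 1.7), while the other pairs gave 4.12 to 63.9, and nothing in the labels says that replicates were separate cultures, so p-values measure a spread that may be technical. The INPUT libraries labelled COPS7B ranked genes less like parental HCT15 (Spearman 0.631 to 0.661 over 11938 genes, a description with shared depth and composition) than the vector libraries did (0.882 to 0.91), and also less than HCT116 libraries did (0.731 to 0.744). The files name genes by Ensembl identifier only, so the level of COPS7B itself and markers of cell type were not analysed here.

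Levels are CPM, counts brought to a common library size by trimmed-mean scaling, differences are log2 ratios with their standard error, and a gene is called where edgeR's quasi-likelihood test, adjusted over all genes, gave p under 0.05. Comparisons with 841CON share its 4 libraries and are set side by side only. CPM values of different genes are not compared, since they were not divided by gene length, and footprint and mRNA CPM are each relative to their own kind of library.

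**Figure D1:**
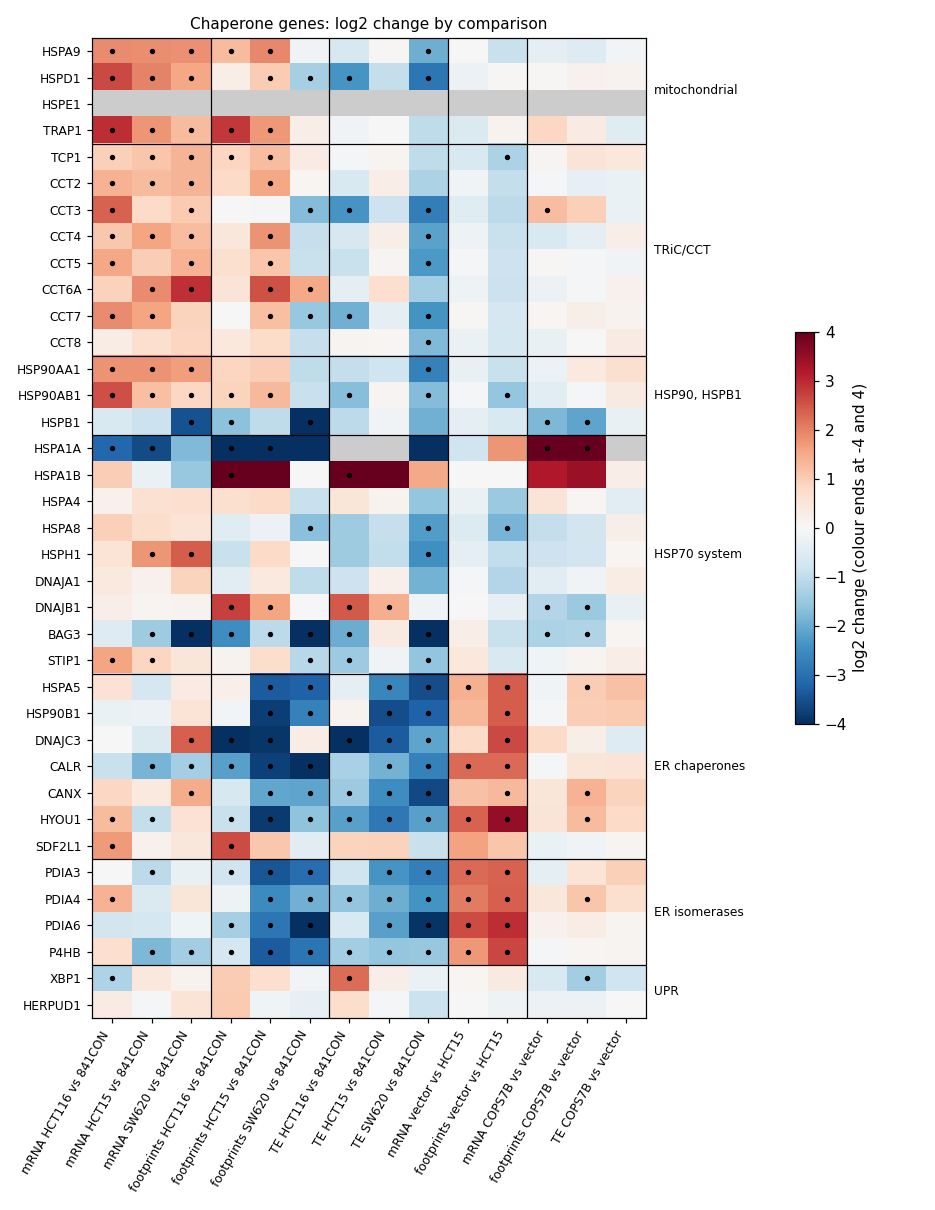
Log2 difference of each chaperone gene (rows, by role) in each comparison (columns, mRNA, footprints and TE), with genes called by edgeR marked. The ER genes stand out with 10 of 11 lower in HCT15 footprints relative to 841CON and 10 of 11 higher in footprints of the vector line relative to HCT15.

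In HCT116 the chaperone genes were mostly higher in mRNA than in 841CON. Of 36, 17 were called in mRNA (40.1% of all genes were), 15 higher and 2 lower (19% and 21% of all genes). Footprints gave 16 calls (59.3% of all genes), 7 higher and 9 lower (22.6% and 36.7%); without trimmed-mean scaling the split was 13 higher and 5 lower. TE gave 14 calls of 35 (45.6%), 3 higher and 11 lower (15.1% and 30.6%), shares close to those of all genes. Medians of the log2 differences were 0.88 for mRNA, 0.17 for footprints and -0.83 for TE, beside -0.042, -0.25 and -0.59 over all genes, and the footprint median was 0.54 without trimmed-mean scaling and -0.032 in DESeq2. Without HCT116 INPUT replicate 2 there were 11 mRNA calls, and without 841CON RPF replicate 1 or HCT116 RPF replicate 2 there were 10 footprint calls; with the close pairs summed there were 8 for mRNA, 6 for footprints and 3 for TE.

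In HCT15 the set split by compartment. mRNA gave 18 calls of 36 (35.4% of all genes), 12 higher and 6 lower (16.7% and 18.7%), or 14 and 3 without trimmed-mean scaling. Footprints gave 23 (49.9%), 11 higher and 12 lower (28.9% and 21.1%). TE gave 11 calls of 35 (16.7%), 1 higher and 10 lower (11.6% and 5.08%), and the 10 were all ER chaperones or isomerases. The TE count was 7 without 841CON RPF replicate 1, 6 with the close pairs summed and 0 with only the compared libraries in the fit, where the mRNA count was 9.

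In SW620 mRNA was mostly higher and footprints mostly lower. mRNA gave 18 calls of 36 (44.4% of all genes), 14 higher and 4 lower (21.9% and 22.5%). Footprints gave 17 (37.8%), 1 higher and 16 lower (18.9% and 18.9%), and TE gave 23 of 36 (18.1%), 0 higher and 23 lower (8.38% and 9.7%). Genes with a mean of at least 100 CPM in the RPF libraries, 2303 in all, were themselves lower in SW620, with 41% lower in footprints, 19.5% lower in TE and a median log2 footprint difference of -0.94, beside -1.01 over the chaperone genes. The SW620 RPF libraries were the shallowest, and the part of depth in these values was not tested. Without 841CON RPF replicate 1 the TE count was 13, and without SW620 INPUT replicate 2 or SW620 RPF replicate 2 it was 14; it was 7 with the close pairs summed and 6 with only the compared libraries, and the mRNA count was 10 without SW620 INPUT replicate 2.

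The mitochondrial chaperones had higher mRNA in all 3 cancer lines than in 841CON. Each of the 3 that could be tested, HSPA9, HSPD1 and TRAP1, rose in every one of the lines. Of all genes 19%, 16.7% and 21.9% were called higher in HCT116, HCT15 and SW620, and 8% in all 3. Of genes with at least 100 footprint CPM 30.3%, 21.6% and 24.2% were. HSPD1 (ENSG00000144381), the HSP60 subunit, stood at 115 and 147 CPM in the 841CON INPUT libraries, against 794 and 831 in HCT116, 529 and 516 in HCT15, and 287 and 483 in SW620. Every cancer library lay above both 841CON libraries. The log2 differences were 2.63 ± 0.35 (SE) in HCT116, 1.99 ± 0.34 in HCT15 and 1.55 ± 0.34 in SW620 (edgeR adjusted p = 1.5e-05, 0.00021 and 0.0012).

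HSPD1 footprints did not follow its mRNA alike in the 3 lines. They stood at 191 and 163 CPM in 841CON, 201 and 225 in HCT116, 271 and 450 in HCT15, and 94.7 and 42.2 in SW620. The HCT15 libraries were the highest, and those of SW620 were below all others. Footprints passed as higher in HCT15 (log2 1.03, edgeR adjusted p = 0.016) and as lower in SW620 (log2 -1.34, edgeR adjusted p = 0.02), the latter in 5 of 11 alternatives and not without SW620 RPF replicate 2 or 841CON RPF replicate 1. In HCT116 the ratio of footprints to mRNA was 0.262 against 1.35 in 841CON, a fall of TE with a log2 change of -2.36 (edgeR adjusted p = 0.00065), and it fell in SW620 too (log2 -2.89, edgeR adjusted p = 0.0019).

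HSPA9 (ENSG00000113013), the matrix HSP70, had 54.7 and 97.5 CPM of mRNA in 841CON. It had 295 and 284 in HCT116, 278 and 286 in HCT15 and 232 and 314 in SW620. These cancer levels lay close together, and the log2 differences from 841CON were 1.91, 1.87 and 1.82 (edgeR adjusted p = 0.00051, 0.00069 and 0.00063). Its footprints were higher in HCT116 (444 and 457 CPM) and HCT15 (597 and 809) than in 841CON (193 and 182), and those in SW620 (232 and 106) spanned the 841CON values. Among the 3 tested genes TRAP1 showed the largest rise of mRNA in HCT116 and the smallest in HCT15 and SW620. TRAP1 mRNA went from 58.3 CPM in 841CON to 451 in HCT116 (log2 2.96), 195 in HCT15 (log2 1.75) and 139 in SW620 (log2 1.28). The SW620 call held in 7 of 11 alternatives. TRAP1 footprints passed as higher in HCT116 (log2 2.84) and HCT15 (log2 1.74).

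HSPE1, the lid of HSP60, could not be tested. Its mRNA ranged from 17.9 CPM in 841CON to 172 in HCT116, while footprints were listed at 0 in 9 of the 12 RPF libraries and reached at most 4.9 CPM in the others. The gene is short and has many processed copies in the genome, and how reads with several matches were counted is not given in the sources used here. HSPE1 lies head to head with HSPD1 on chromosome 2 (197500379 to 197503449 in GRCh38.p14, beside HSPD1 at 197486584 to 197500274).

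**Figure D2:**
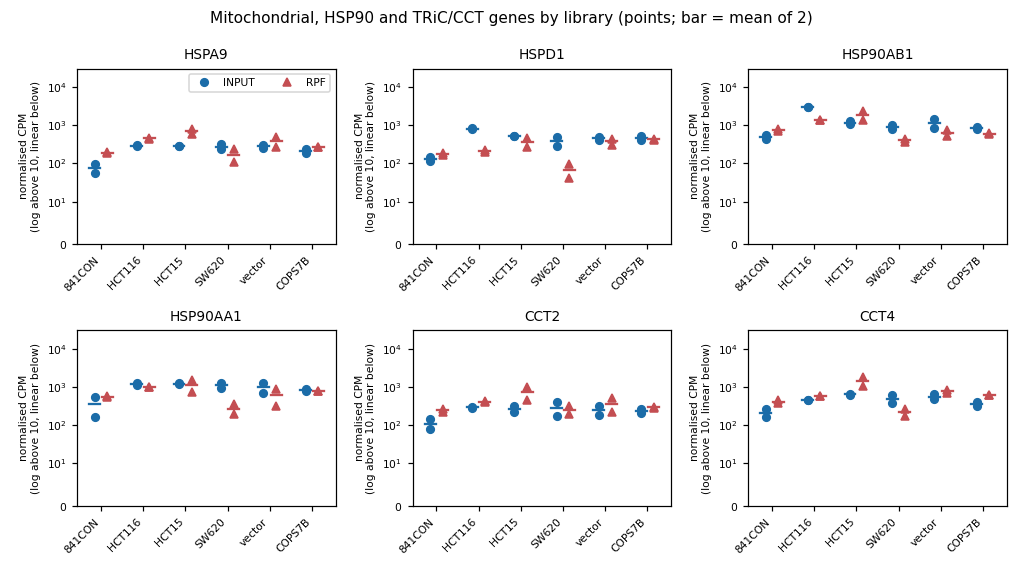
Normalised CPM of HSPA9, HSPD1, HSP90AB1, HSP90AA1, CCT2 and CCT4 in each library (y axis, log above 10 and linear below; points, with bars for the mean of 2) by cell population (x axis). INPUT circles of each gene lie higher in HCT116, HCT15 and SW620 than in 841CON, and in SW620 the bar of RPF lies below that of INPUT for each gene.

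Subunits of TRiC/CCT had higher mRNA in the cancer lines. Of 8 subunits none fell, and 6 rose in each of HCT116 and SW620 and 5 in HCT15, where 19%, 21.9% and 16.7% of all genes were called higher. TCP1, CCT2 and CCT4 rose in all 3 lines. CCT4 (ENSG00000115484) stood at 160 and 261 CPM in 841CON, 448 and 453 in HCT116, 650 and 619 in HCT15, and 386 and 600 in SW620. No cancer library overlapped 841CON, and the log2 differences were 1.09, 1.58 and 1.22 (edgeR adjusted p = 0.016, 0.0015 and 0.0073). CCT2 stood at 79.2 and 142 CPM in 841CON, 294 and 285 in HCT116, 317 and 223 in HCT15, and 175 and 393 in SW620. Its log2 differences were 1.38, 1.28 and 1.35 (edgeR adjusted p = 0.025, 0.04 and 0.025). Each of these calls held in 7 of 11 alternatives and was lost without 841CON INPUT replicate 1.

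CCT footprints rose most in HCT15. There 6 of 8 subunits passed as higher (28.9% of all genes and 35% of those with at least 100 footprint CPM did). The median log2 difference over the 8 was 1.22, and CCT6A had the largest (log2 2.55 ± 0.41, edgeR adjusted p = 6.1e-05). The calls of CCT4 and CCT6A held in 11 of 11 alternatives, those of TCP1, CCT2, CCT7 and CCT5 in 9, 7, 7 and 5. CCT4 footprints were 454 and 374 CPM in 841CON, 1045 and 1846 in HCT15, 563 and 562 in HCT116 and 267 and 169 in SW620. Both HCT15 libraries lay above all others of these 4 lines, and both SW620 libraries below them. In HCT116 only TCP1 passed (log2 0.87). In SW620 CCT6A was higher (log2 1.51) and CCT3 and CCT7 were lower (log2 -1.73 and -1.50). TE of the subunits fell in SW620 for 5 of 8 and in HCT116 for 2 of 8 (CCT3 and CCT7), and passed for none in HCT15. The share in HCT116 was below the 30.6% of all genes with lower TE there, and that in SW620 above the 9.7%.

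The cytosolic HSP90 genes also had higher mRNA in the 3 lines. HSP90AB1 (ENSG00000096384), the constitutive form, stood at 445 and 557 CPM in 841CON, 2972 and 3055 in HCT116, 1047 and 1274 in HCT15 and 768 and 1022 in SW620. All cancer libraries were above 841CON, those of HCT116 by the most, with log2 differences of 2.59 ± 0.35 (SE), 1.21 ± 0.33 and 0.84 ± 0.33 (edgeR adjusted p = 1.6e-05, 0.0082 and 0.047). The SW620 call held in 4 of 11 alternatives and lost without any 1 of the 4 INPUT libraries compared. HSP90AB1 footprints passed as higher in HCT116 (1361 and 1386 CPM) and HCT15 (1344 and 2358) against 789 and 705 in 841CON. In HCT116 the rise of footprints was smaller than that of mRNA, and TE fell (log2 -1.71, edgeR adjusted p = 0.0063).

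HSP90AA1, the stress-inducible form, stood at 163 and 530 CPM of mRNA in 841CON, 1137 and 1268 in HCT116, 1246 and 1157 in HCT15 and 920 and 1287 in SW620. The groups did not overlap, although the 841CON libraries differed widely, and the log2 differences were 1.79, 1.78 and 1.66 (edgeR adjusted p = 0.0085, 0.0097 and 0.012). Each mRNA call of HSP90AA1 held in 9 of 11 alternatives and was lost without 841CON INPUT replicate 1. HSP90AA1 footprints passed in none of the 3 lines. HSPB1, a small heat shock protein that holds unfolded proteins, went the other way in SW620. Its mRNA was 1749 and 1604 CPM in 841CON and 211 and 91.5 in SW620 (log2 -3.48, edgeR adjusted p = 1.8e-05), and its footprints were 3580 and 3447 against 25.8 and 148, the SW620 values resting on 17 counts (log2 -5.40, edgeR adjusted p = 1.4e-06). HSPB1 footprints also fell in HCT116, to 1087 and 1166 CPM (log2 -1.64, edgeR adjusted p = 0.0037).

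In the HSP70 system of the cytosol, genes moved in different directions. BAG3 (ENSG00000151929), the exchange factor that routes clients to autophagy, had footprints of 517 and 508 CPM in 841CON, 93.0 and 90.3 in HCT116, 317 and 176 in HCT15 and 0 in both SW620 libraries. All cancer libraries were below 841CON. The log2 differences were -2.48 in HCT116 and -1.06 in HCT15 (edgeR adjusted p = 6.9e-05 and 0.032), and the HCT15 call held in 5 of 11 alternatives, not without HCT15 RPF replicate 2 or either 841CON RPF library. In SW620 a floor of 3 counts summed over both libraries put BAG3 footprints at least 36-fold lower (edgeR adjusted p = 2.5e-06). BAG3 mRNA was also lower in HCT15 (53.7 and 114 CPM) and SW620 (7.67 and 18.8) than in 841CON (255 and 188), with log2 differences of -1.41 and -3.99 (edgeR adjusted p = 0.011 and 4.7e-06).

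DNAJB1 (ENSG00000132002), the main stress-inducible J-domain protein of the cytosol, changed in footprints without a called change in mRNA. Its mRNA was 152 to 208 CPM in all 841CON, HCT116, HCT15 and SW620 libraries. Footprints were 71.6 and 82.7 CPM in 841CON, 524 and 491 in HCT116, 218 and 241 in HCT15 and 77.5 and 73.9 in SW620. HCT116 stood highest, HCT15 next, and SW620 overlapped 841CON. TE rose in HCT116 (log2 2.44 ± 0.38, edgeR adjusted p = 6.4e-05) and HCT15 (log2 1.45 ± 0.38, edgeR adjusted p = 0.012), and in SW620 the log2 difference was -0.15 (edgeR adjusted p = 0.85). DNAJB1 and XBP1 in HCT116 and DNAJB1 in HCT15 were the chaperone genes called for higher TE in these comparisons, apart from HSPA1B in HCT116.

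HSPA1A and HSPA1B encode a nearly identical inducible HSP70 and lie side by side on chromosome 6 (31815543 to 31817942 and 31827738 to 31830254 in GRCh38.p14), so counts split between them are uncertain. HSPA1A footprints were 15.9 and 16.1 CPM in 841CON and 0 in both HCT116 libraries, at least 10.9-fold lower (edgeR adjusted p = 0.0053). HSPA1B footprints ran the opposite way, at 0 in both 841CON libraries and 82.1 and 83.5 CPM in HCT116, at least 111-fold higher (edgeR adjusted p = 0.0039). Summed over the pair, footprints were 15.9 and 16.1 CPM in 841CON, 82.1 and 83.5 in HCT116, 30.1 and 0.244 in HCT15 and 0 in SW620. The sum was higher in HCT116 than in 841CON, and the HCT15 libraries lay on both sides of 841CON. HSPH1 mRNA rose in HCT15 and SW620 (log2 1.76 and 2.42) and STIP1, which links HSP70 to HSP90, in HCT116 and HCT15 (log2 1.57 and 0.85). HSPA8, the constitutive HSP70, fell in SW620 footprints (log2 -1.69, edgeR adjusted p = 0.013).

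**Figure D3:**
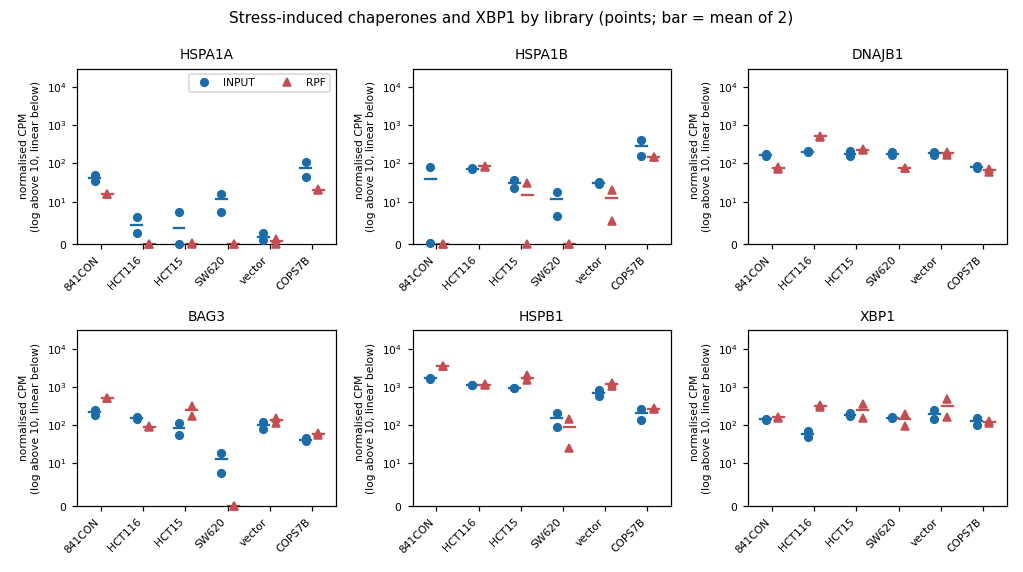
Normalised CPM of HSPA1A, HSPA1B, DNAJB1, BAG3, HSPB1 and XBP1 in each library (y axis, log above 10 and linear below; points, with bars for the mean of 2) by cell population (x axis). DNAJB1 footprints of 524 and 491 CPM in HCT116 stand above all other DNAJB1 values, and BAG3 footprints in SW620 are at 0.

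The ER chaperones and isomerases, 11 genes, had lower footprints in HCT15 and SW620 than in 841CON. In HCT15 10 of 11 fell (21.1% of all genes did) and none rose, with a median log2 difference of -3.34, whereas of the other 25 tested chaperone genes 11 rose and 2 fell (median 0.99). In SW620 9 of 11 fell, with a median of -2.70 (18.9% of all genes fell), against 7 of 25 for the others (median -0.90). These SW620 values rest on few counts, such as 23 for HSPA5 and 7 for PDIA3 over both libraries. Of genes with a mean of at least 100 footprint CPM, 24.1%, 41% and 29.1% were lower in HCT15, SW620 and HCT116. Their median log2 differences were 0.37, -0.94 and 0.10. In HCT116 6 of the 11 ER genes fell and 1, SDF2L1, rose (36.7% and 22.6% of all genes). Of the 6, the calls of PDIA3, PDIA6, P4HB and HYOU1 held in 6, 6, 3 and 5 of 11 alternatives. Those of CALR and DNAJC3 held in 11. The difference between the ER genes and the others is a description and was not tested.

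HSPA5 (ENSG00000044574) footprints were 1079 and 975 CPM in 841CON, 1239 and 1123 in HCT116, 102 and 104 in HCT15 and 112 and 106 in SW620. The HCT116 values were as high as those of 841CON, and the HCT15 and SW620 values formed a low group apart from both. The log2 differences were -3.31 ± 0.35 (SE) in HCT15 and -3.24 ± 0.39 in SW620 (edgeR adjusted p = 8.7e-07 and 4.2e-06), and in HCT116 0.20 (edgeR adjusted p = 0.63). HSPA5 mRNA did not pass in any of the lines, at 229 and 174 CPM in 841CON, 305 and 293 in HCT116, 99.2 and 150 in HCT15 and 294 and 208 in SW620.

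HSP90B1 (ENSG00000166598), the ER form of HSP90, was likewise high in 841CON and HCT116 and low in HCT15 and SW620. Its footprints were 1363 and 1244 CPM in 841CON, 1192 and 1222 in HCT116, 79.0 and 113 in HCT15 and 181 and 222 in SW620. HCT15 and SW620 were below 841CON (log2 -3.75 and -2.70, edgeR adjusted p = 2.1e-06 and 0.00012), and HCT116 was not called (log2 -0.11, edgeR adjusted p = 0.88). The ratio of footprints to mRNA was 10.7 in 841CON and 11.7 in HCT116, against 0.908 in HCT15 and 1.12 in SW620. HSP90B1 mRNA was 78.3 and 166 CPM in 841CON, and the log2 differences of mRNA in the 3 lines lay between -0.26 and 0.55, with none called.

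CALR (ENSG00000179218), which holds glycoproteins and binds calcium in the ER, had the largest fall of footprints shared by the 3 lines, ranked by the smallest of its 3 changes. Footprints were 3077 and 2959 CPM in 841CON, 632 and 705 in HCT116, 297 and 160 in HCT15 and 112 and 253 in SW620. Each cancer library was below 841CON (log2 -2.18, -3.73 and -4.07, edgeR adjusted p = 3e-04, 4.8e-06 and 6.1e-06). CALR mRNA was 393 and 434 CPM in 841CON, 217 and 234 in HCT116, 82.5 and 148 in HCT15 and 194 and 129 in SW620, and passed as lower in HCT15 and SW620 (log2 -1.85 and -1.36). HYOU1 (ENSG00000149428), an exchange factor for HSPA5, had footprints of 238 and 221 CPM in 841CON, 125 and 123 in HCT116, 23.8 and 10.0 in HCT15 and 77.5 and 73.9 in SW620. These also lay below 841CON in every library (log2 -0.89, -3.83 and -1.60, edgeR adjusted p = 0.026, 4.7e-07 and 0.0052), while HYOU1 mRNA was higher in HCT116 (log2 1.28) and lower in HCT15 (log2 -0.96). The HCT116 footprint call of HYOU1 was lost without any 1 of the 4 RPF libraries compared, and its HCT15 mRNA call without HCT15 INPUT replicate 1 or 841CON INPUT replicate 1; each held in 5 of 11 alternatives.

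All 4 disulfide isomerases fell in HCT15, both in footprints (median log2 -3.11) and in TE (median -2.06). P4HB (ENSG00000185624) footprints were 1359 and 1304 CPM in 841CON, 841 and 799 in HCT116, 131 and 133 in HCT15 and 172 and 180 in SW620, and P4HB mRNA was 673 and 431, 872 and 894, 161 and 159, and 247 and 172. Footprints were below 841CON in every cancer library (log2 -0.70, -3.34 and -2.92, edgeR adjusted p = 0.044, 4.1e-07 and 2.9e-06). The HCT116 call held in 3 of 11 alternatives and was lost without any 1 of the 4 RPF libraries compared. P4HB mRNA fell in HCT15 and SW620 (log2 -1.79 and -1.40, edgeR adjusted p = 0.00016 and 0.00088). PDIA4 (ENSG00000155660) footprints were 495 and 464 CPM in 841CON, 406 and 430 in HCT116, 97.2 and 69.2 in HCT15 and 138 and 116 in SW620. PDIA4 was called lower in HCT15 and SW620 (log2 -2.53 and -1.91), while its mRNA, at 125 and 52.7 CPM in 841CON, was higher in HCT116 (223 and 234 CPM, log2 1.39).

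DNAJC3, a J-domain cochaperone of HSPA5, had footprints of 104 and 85.0 CPM in 841CON against 0 and 0.971 in HCT116 and 9.79 and 3.91 in HCT15. Its mRNA in HCT116 was 32.0 and 27.2 CPM, close to the 30.2 and 29.8 of 841CON, so TE there was 0.0164 against 3.15, resting on 1 footprint count. SDF2L1, another HSPA5 partner, was the 1 ER gene not called lower in HCT15 footprints, SDF2L1 and DNAJC3 were the 2 not called in SW620, and in HCT116 SDF2L1 rose in mRNA (log2 1.72) and footprints (log2 2.61).

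**Figure D4:**
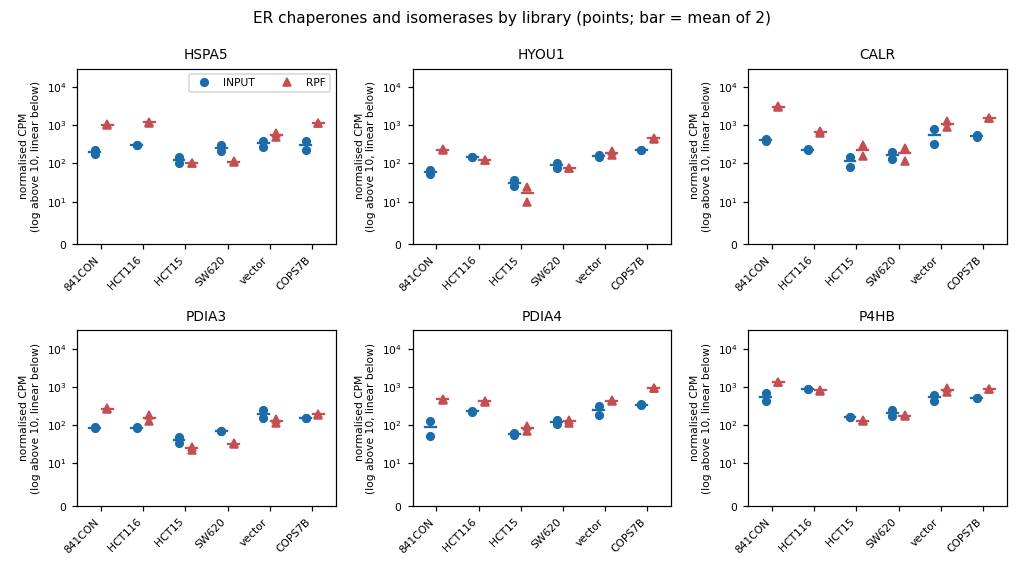
Normalised CPM of HSPA5, HYOU1, CALR, PDIA3, PDIA4 and P4HB in each library (y axis, log above 10 and linear below; points, with bars for the mean of 2) by cell population (x axis). RPF triangles of 841CON lie above its INPUT circles for each gene, the HCT15 and SW620 triangles are low, and the vector and COPS7B triangles are higher than those of HCT15.

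TE combines these levels. Over the 11 ER genes the median ratio of footprints to mRNA was 4.36 in 841CON, 1.83 in HCT116, 0.829 in HCT15, 0.84 in SW620, 1.68 in the vector line and 2.39 in the COPS7B line. For the other 26 genes the medians were 1.89, 1.06, 1.75, 0.541, 1.28 and 1.18 in the same order. Ratios were over 1 for all 11 ER genes in 841CON and for 4 of 11 in HCT15, while 22 and 21 of the 26 others were over 1 in these lines. Over all genes with enough mRNA counts 41.5% had a ratio over 1 in 841CON and 46.9% in HCT15, with medians of 0.783 and 0.928. The 11 ER genes took 0.727% ± 0.0141 (SD, n = 2) of footprint counts in 841CON, 0.572% ± 0.000407 in HCT116, 0.0988% ± 0.0151 in HCT15, 0.149% ± 0.00268 in SW620, 0.509% ± 0.143 in the vector line and 1.01% ± 0.00545 in the COPS7B line. Their shares of mRNA counts were 0.151%, 0.223%, 0.108%, 0.187%, 0.357% and 0.439%.

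**Figure D5:**
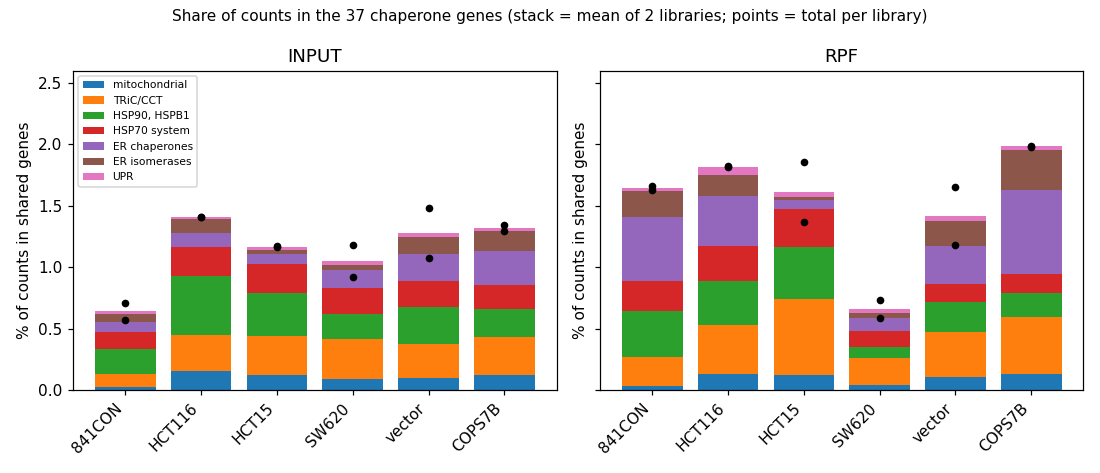
Share of counts (percent of counts in the shared genes) taken by each role group of chaperone genes in INPUT and RPF libraries of each cell population, as the mean of 2 libraries. The 11 ER genes together take 0.727% of footprints in 841CON and 0.0988% in HCT15.

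Called in the same direction in all 3 lines were HSPA9, HSP90AA1, HSP90AB1, HSPD1, TRAP1, TCP1, CCT2 and CCT4 for higher mRNA, which is 8 of 36 chaperone genes and 8% of all genes. BAG3, CALR, PDIA3, PDIA6, P4HB and HYOU1 had lower footprints in all 3 (6 of 36, and 8.02% of all genes), and DNAJC3, CANX, PDIA4, P4HB and HYOU1 lower TE (5 of 35, and 0.96% of 7707 genes). These comparisons share the 841CON libraries, whose INPUT pair was the least alike of all pairs (chi-square per gene 63.9). Without 841CON INPUT replicate 1 the mRNA calls of HSP90AA1 and CCT2 were lost in all 3 lines. So were those of CCT4 in HCT116 and SW620 and that of TCP1 in HCT116. Membership rests in part on calls that fewer than 6 of 11 alternatives kept, those of HSP90AB1 mRNA in SW620, P4HB and HYOU1 footprints in HCT116 and BAG3 footprints in HCT15, and on DNAJC3 TE in SW620, kept in 4 of 16. The cancer lines also differed among themselves, in mRNA for 17 of 36 chaperone genes (46% of all genes) and in TE for 20 of 35 (52.7% of all genes) in an F test with edgeR, shares that are near the background. The mRNA count was 10 without either HCT116 INPUT replicate. XBP1 (ENSG00000100219), the transcription factor of the unfolded protein response, was among them. Its mRNA was 70.0 and 48.5 CPM in HCT116 against 149 and 132 in 841CON (log2 -1.25, edgeR adjusted p = 0.042, held in 5 of 11 alternatives), with footprints of 344 and 294 against 168 and 151, so that TE rose (log2 2.25, edgeR adjusted p = 0.0097). HERPUD1, a component of ER-associated degradation, passed in none of the 9 comparisons with 841CON; mean mRNA levels were 106 CPM for 841CON, 135 for HCT116, 102 for HCT15 and 156 for SW620.

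In the vector line every chaperone gene called higher than in parental HCT15 was one of the ER, and the 3 called lower were cytosolic. mRNA gave 7 calls of 36 (0.67% of all genes), 7 higher and 0 lower (0.603% and 0.067%), and all 7 were ER chaperones or isomerases. Footprints gave 13 calls (10.5% of all genes), 10 higher and 3 lower (7.44% and 3.03%), and the 10 were ER genes; DESeq2 gave 10 higher and 6 lower. Over the 11 ER genes the median log2 difference was 1.73 for mRNA and 2.43 for footprints, against -0.19 and -0.86 over the other 25. Both vector libraries lay above both HCT15 libraries for all 11 ER genes in mRNA and in footprints, and for none of the other 26 (21.8% of all genes in mRNA and 26% in footprints). They lay below both for 6 of the other 26 in mRNA and 14 in footprints, and for no ER gene (18.7% and 22.6% of all genes).

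HYOU1 footprints were 162 and 208 CPM in the vector line against 23.8 and 10.0 in HCT15 (log2 3.52 ± 0.37, edgeR adjusted p = 3.5e-05), and its mRNA was 149 and 169 against 25.2 and 36.8 (log2 2.37, edgeR adjusted p = 0.003). P4HB footprints were 745 and 933 CPM against 131 and 133 (log2 2.67, edgeR adjusted p = 6.2e-05), and mRNA 435 and 624 against 161 and 159 (log2 1.73, edgeR adjusted p = 0.0099). CALR mRNA was 325 and 775 CPM against 82.5 and 148 (log2 2.26, edgeR adjusted p = 0.015). The 2 sets of libraries did not overlap for any of these genes. Footprints of HSPA8, HSP90AB1 and TCP1 fell in the vector line (log2 -1.85, -1.55 and -1.26), and XBP1 did not pass, with mRNA of 243 and 145 CPM against 170 and 203.

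The mRNA calls of the vector comparison depended on single libraries. Without vector INPUT replicate 2 the count was 0 and without HCT15 INPUT replicate 1 it was 3, and it was 0 when only the compared libraries were fitted or close pairs were summed, where 0 of all genes passed in edgeR; DESeq2 called 9. HYOU1, PDIA3 and PDIA4 mRNA passed in 8 of 11 alternatives. Footprints of HSPA5, HSP90B1, PDIA3, PDIA4, PDIA6, P4HB and HYOU1 passed in 11 of 11, and the footprint count was 7 without HCT15 RPF replicate 2. Only the vector and COPS7B tables end with summary lines of the counting, so carrying the vector and that difference of the tables cannot be told apart.

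The line labelled COPS7B was compared with the vector line, its matched control by the labels. mRNA gave 5 calls of 36 (17.5% of all genes), 2 higher and 3 lower (9.18% and 8.31%), and footprints gave 9 (17.3%), 5 higher and 4 lower (7.92% and 9.42%), or 7 and 2 in DESeq2 and without trimmed-mean scaling. TE passed for 0 of 35 chaperone genes and for 0% of all genes by edgeR's quasi-likelihood test; at an unadjusted p under 0.05 the counts were 2 and 132 of 9542, and DESeq2 called 0.

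Of the ER genes HSPA5, CANX, PDIA4 and HYOU1 had higher footprints in the COPS7B line. HSPA5 stood at 1137 and 1108 CPM against 623 and 487 in the vector line (log2 1.02 ± 0.32, edgeR adjusted p = 0.033). HYOU1 stood at 450 and 444 CPM against 162 and 208 (log2 1.27 ± 0.33, edgeR adjusted p = 0.011). The libraries of the lines did not overlap for either gene, and no ER gene passed in mRNA. The footprint calls of HSPA5 and PDIA4 held in 6 of 11 alternatives and were lost without any 1 of the 4 RPF libraries compared. Those of CANX and HYOU1 held in 7 of 11. DNAJB1 was lower in mRNA (86.4 and 77.4 CPM against 170 and 198, log2 -1.16, edgeR adjusted p = 0.0045) and in footprints (60.8 and 70.8 against 198 and 168, log2 -1.47, edgeR adjusted p = 0.00081). BAG3 and HSPB1 were lower in both assays as well. HSPB1 had mRNA of 270 and 137 CPM against 576 and 833 (log2 -1.79). Its footprints were 274 and 265 against 1257 and 1061 (log2 -2.10). The BAG3 calls held in 5 of 11 alternatives for mRNA and in 2 of 11 for footprints.

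Summed over HSPA1A and HSPA1B, mRNA was 516 and 200 CPM in the COPS7B line against 31.8 and 33.6 in the vector line, and footprints were 165 and 164 against 21.4 and 5.36. HSPA1A passed as higher in both assays (log2 5.23 and 4.72, edgeR adjusted p = 0.0081 and 0.03), while DNAJB1, BAG3 and HSPB1, which heat shock also induces, were lower. HSPA1A alone stood at 2.65 and 0.908 CPM of mRNA and 1.3 and 0 of footprints in the vector line. Its mRNA call held in 8 of 11 alternatives, not without either vector INPUT library or COPS7B INPUT replicate 1. The HSPA1A footprint call held in 6 of 11 and was lost without any 1 of the 4 RPF libraries compared. CCT3 was the other gene with higher mRNA (log2 1.22), and XBP1 the other with lower footprints (log2 -1.40, held in 4 of 11 alternatives). These counts shrank without single libraries: mRNA to 2 without vector INPUT replicate 1 or 2, to 3 and 1 without COPS7B INPUT replicate 1 and 2, and footprints to 2 without vector RPF replicate 1 or COPS7B RPF replicate 1, and to 1 without COPS7B RPF replicate 2. With close pairs summed the footprint count was 0 and the mRNA count 1.

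Since the libraries labelled COPS7B ranked genes less like HCT15 than HCT116 libraries did, they were also set against HCT116. mRNA gave 10 calls of 36 (23.9% of all genes), 5 higher and 5 lower (13.8% and 10.1%), or 10 and 5 without trimmed-mean scaling and 9 and 5 in DESeq2, and footprints gave 16 (57.9%), 9 higher and 7 lower (42.1% and 15.8%). PDIA6 mRNA was 297 and 313 CPM against 44.7 and 41.1 in HCT116 (log2 2.83, edgeR adjusted p = 0.00046), and DNAJB1 footprints were 60.8 and 70.8 against 524 and 491 (log2 -2.95, edgeR adjusted p = 4.6e-07). HSPA5 was called in neither assay, with mRNA of 374 and 225 CPM against 305 and 293 and a log2 difference of -0.07 in footprints (edgeR adjusted p = 0.86). The mRNA count was 5 without either HCT116 INPUT replicate and 6 without either COPS7B INPUT replicate, and the footprint count 9 without HCT116 RPF replicate 1 and 10 without HCT116 RPF replicate 2 or COPS7B RPF replicate 1.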

How the data were processed

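Every deposited file gives whole-number counts for genes named by Ensembl identifier. Per the submitters' processing notes, cutadapt 3.5, STAR 2.7.9, HTSeq 2.0.2 and build GRCh38 were used; annotation release, strand setting and handling of reads with several matches: not given in the sources used here. INPUT tables hold 60623 genes and those of RPF hold 20426, all shared, and these were tested. Summary lines naming no gene (8 tables; 19.2% to 57.8% of reads not aligned) were left out.

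The 24 libraries fell into 12 groups of 2. A quasi-likelihood model of edgeR 4.0.16 (R 4.3.3), with 1 mean for each group over all libraries, took genes passing its expression filter (minimum count 10) in each assay, with trimmed-mean scaling within INPUT and within RPF. TE was tested as the assay-by-line interaction where INPUT counts averaged 10 or more in each of the lines compared. Tests were two-sided, with Benjamini-Hochberg adjustment over all genes, and called at an adjusted p under 0.05. Such scaling hides any shift shared by most genes. Bounds against a group at 0 use a floor of 3 counts over the group and cover counting error only. The procedure was tested on simulated data.

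Per-library values are given for up to 2 genes of each role group, those called alike in all 3 lines with the largest smallest change, then by adjusted p, and for genes called in TE; other genes so shown (HSPA1A, HSPA1B, HSPB1, HSPE1, HERPUD1 and some COPS7B values) were chosen after their values were seen. The chaperone genes and lists were chosen with earlier results of these data known. Lists of 90 other folding genes and 24 cell type markers, and COPS7B itself, could not be matched to Ensembl identifiers and were not analysed here.

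The other settings tried were joint scaling of both assays, no trimmed-mean scaling, no filter on low counts, DESeq2 1.42.0, only the compared libraries, close replicate pairs summed, replicate numbers as a block, over all libraries or within each line, and leaving out each library; a restriction to genes with at least 100 footprint CPM was chosen after seeing the data.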

Additional observations from a re-analysis of the deposited data

Results flagged for a closer look

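The F test of edgeR found that the change relative to 841CON differed between HCT116, HCT15 and SW620 for the following chaperone genes, a contrast in which 841CON cancels. For mRNA these were P4HB (edgeR adjusted p = 5.3e-06), BAG3 (7.1e-05), DNAJC3 (0.00013), HYOU1 (0.00022), HSPB1 (0.00029), HSP90AB1 (0.00061), PDIA4 (0.00084), CCT6A (0.0018), CCT3 (0.0019), TRAP1 (0.0032), HSPH1 (0.0091), HSPA5 (0.0097), XBP1 (0.02), STIP1 (0.021), PDIA3 (0.023), HSPD1 (0.033) and CANX (0.044). For TE these were HSP90B1 (edgeR adjusted p = 9.1e-05), HSPA5 (0.00014), DNAJB1 (0.00035), DNAJC3 (0.002), BAG3 (0.0023), CCT4 (0.003), HSP90AB1 (0.0044), PDIA3 (0.0058), PDIA6 (0.008), CANX (0.0085), CCT5 (0.0094), CCT3 (0.0099), HSPD1 (0.011), XBP1 (0.012), HSPA9 (0.015), CCT6A (0.016), CCT7 (0.018), CCT8 (0.019), STIP1 (0.021) and DNAJA1 (0.045). P4HB mRNA had means of 883 CPM in HCT116, 160 in HCT15 and 209 in SW620. DNAJB1 had ratios of footprints to mRNA of 2.53 in HCT116, 1.28 in HCT15 and 0.419 in SW620. BAG3 mRNA had means of 156, 83.7 and 13.2 CPM in the same lines. CCT4 had ratios of 1.25, 2.28 and 0.442, and HSPA9 of 1.56, 2.49 and 0.619. The same test passed for 46% of all genes in mRNA and 52.7% in TE.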

How the results depend on the processing

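Over the 217 calls of single chaperone genes and their 2625 alternatives, no log2 difference changed sign, 2120 stayed past the threshold and 505 lost it; 77 calls held in every alternative and 18 in under 50%. Medians over the chaperone genes did turn: without trimmed-mean scaling to 0.0535 for mRNA of COPS7B against vector (from -0.0996) and to 0.192 and 0.0175 for mRNA and footprints of COPS7B against HCT116 (from -0.244 and -0.214), in DESeq2 to -0.0321 for HCT116 footprints (from 0.168), and without vector INPUT replicate 2 to 0.23 and -0.161 for mRNA and TE of COPS7B against vector (from -0.0996 and 0.138). That of mRNA in vector against HCT15, 0.00123, lay near 0 and turned in 6 alternatives. The median of all genes itself shifted by -0.15 to 0.44 on the log2 scale without trimmed-mean scaling and by -0.264 to 0.43 in DESeq2. With the close pairs summed, counts of called chaperone genes were 8 for mRNA, 6 for footprints and 3 for TE in HCT116, 15 for footprints and 6 for TE in HCT15, 7 for TE in SW620, 1 for mRNA and 0 for footprints in COPS7B against vector, 0 for mRNA in vector against HCT15, 2 for mRNA and 3 for footprints in COPS7B against HCT116, and 7 for mRNA and 6 for TE in the F tests. A fit of only the compared libraries leaves few residual degrees of freedom and takes the spread from those libraries alone. Counts were then 9 for mRNA and 0 for TE in HCT15 and 6 for TE in SW620. They were 0 for mRNA and 8 for footprints in vector against HCT15. In COPS7B against HCT116 mRNA gave 30. In HCT116 counts rose to 24 for mRNA, 20 for footprints and 16 for TE, from 17, 16 and 14. Chi-square per gene was 1.39 and 1.7 for the HCT116 pairs (INPUT and RPF) and 31 and 31.6 for those of HCT15. Without trimmed-mean scaling the F test of TE called 13. The cause of these shifts was not tested.

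Leaving out 1 library at a time gave 11 to 15 mRNA, 10 to 11 footprint and 11 to 14 TE calls in HCT116, 13 to 18, 18 to 26 and 7 to 12 in HCT15, and 10 to 19, 13 to 16 and 13 to 23 in SW620. COPS7B against vector gave 1 to 3 mRNA and 1 to 6 footprint calls, vector against HCT15 0 to 8 and 7 to 16, COPS7B against HCT116 5 to 6 and 9 to 11, and the F tests 10 to 19 for mRNA and 15 to 24 for TE. Taken over all genes of the INPUT tables, the chaperone share of mRNA counts fell for 841CON from 0.641% to 0.502%, for HCT116 from 1.41% to 1.02%, for HCT15 from 1.17% to 0.923%, for SW620 from 1.05% to 0.589% and for COPS7B from 1.32% to 1.12%.

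Outside the vector line, replicate numbers showed no pairing of the libraries. The deviations of same-numbered INPUT and RPF libraries correlated at -0.119 to 0.015 there, and at 0.226 in the vector line. Between lines, 2 of 15 INPUT and 1 of 15 RPF pairs exceeded 0.1. Whether the vector libraries were paired was not tested. With the replicate number as a block, counts were 17, 15 and 14 in HCT116, 18, 23 and 11 in HCT15 and 18, 18 and 23 in SW620 for mRNA, footprints and TE, and 6 and 14 for mRNA and footprints in vector against HCT15. With the number within each line as a block, TE counts were 14, 10 and 18 in HCT116, HCT15 and SW620, and 16 in the F test. Depth limits SW620 footprints, where an RPF library holds as few as 84262 counts.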
